A study of Mus musculus with 6 samples.

Results

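The genes described here are the matrix metalloproteinases (MMPs), the ADAMTS proteases and the tissue inhibitors of metalloproteinases (TIMPs) of the mouse femur. They were chosen by name: 15 Mmp genes, 17 Adamts genes and 4 Timp genes, 36 of the 23733 genes in the count table, without Mmp8, the collagenase of neutrophils. All 36 were found in the table by their Ensembl identifiers, and 35 had enough reads to be tested. The remaining gene, Adamts19, lay between 0.142 and 0.431 CPM, the read count scaled to library size, in the 6 libraries.

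The 3 Mutant mice were Rosa26 mIfitm5/+ Acan-Cre ERT2 animals. They carried 1 knock-in copy of Ifitm5 with the osteogenesis imperfecta type V mutation at the Rosa26 locus, which was switched on by a tamoxifen-dependent Cre recombinase driven from the aggrecan gene, a chondrocyte gene. The 3 Control mice were littermates. The study describes its controls as mice with the Cre alone, the knock-in alone or neither, and which of these each Control mouse was is not given in the sources used here, nor is the sex of the animals. Tamoxifen was injected at 10 mg/kg per dose, at postnatal day 10 in the description of the RNA-Seq samples and from day 10 to day 15 in the design text, and femurs were collected at 5 weeks of age. Total RNA came from pulverized whole bone, with 1 library per mouse, so cartilage, mineralized bone and marrow were measured together. In such bulk RNA, fewer cells of a type and less RNA per cell cannot be told apart.

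Metalloproteinases are zinc enzymes that cut proteins of the extracellular matrix. In long bones, MMPs open the calcified cartilage of the growth plate and degrade bone collagen. ADAMTS enzymes trim procollagens and cut the proteoglycans and glycoproteins of cartilage. TIMPs bind and block the active sites of MMPs, and Timp3 also blocks Adamts4 and Adamts5. Growth plates and joints lose or retain matrix according to the balance between enzymes and inhibitors.

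The libraries held 11473467, 13917699 and 14593082 counts in Mutant mice 1, 2 and 3, against 12654734, 12467626 and 17058572 counts in Control mice 1, 2 and 3. In the edgeR quasi-likelihood test over 18126 genes, 0 genes passed an adjusted p of 0.05 (Benjamini-Hochberg), while 918 genes were higher and 633 lower in Mutant femurs at an unadjusted p under 0.05. DESeq2 called 107 genes higher and 11 lower, and the edgeR fit with the mouse number as a block, which compares Mutant and Control mice within each number, called 489 higher and 113 lower. The labels do not say what the mouse number stands for. Block fits with a pair left out, given below for single genes, rest on few libraries and lean more on spread borrowed from other genes. The table has 1 row for Ifitm5, in which reads of the knock-in and of the endogenous gene cannot be told apart, and it held 23.4, 36.7 and 36.02 CPM in Mutant femurs against 31.8, 31.3 and 47.6 CPM in Control femurs. The marker lists here and below were chosen with earlier results of these data known, so their counts are descriptions. All 10 genes of the cartilage list had positive log2 fold changes (median 1.77). DESeq2 called 7 of them, the block fit 1 and edgeR without the block 0. Their summed level was 4509, 2022 and 6196 CPM in Mutant mice 1, 2 and 3 against 1835, 1849 and 1452 CPM in Control mice 1, 2 and 3. Skeletal muscle and erythroid markers overlapped between the groups and varied widely among mice of each group, but within the numbered pairs the block fit called 7 of 8 muscle and 8 of 8 erythroid markers higher in Mutant femurs, against 0 of each in edgeR without the block and in DESeq2.

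Most of these protease and inhibitor genes sat slightly below the Control level in Mutant femurs. Of the 35 tested, 29 had a negative and 6 a positive log2 fold change (Mutant over Control), with a median of -0.34, beside a median of 0.00 and 49.7% negative over all genes tested. The MMPs had 14 of 15 negative (median -0.38), the ADAMTS genes 13 of 16 (median -0.36) and the TIMPs 2 of 4 (median 0.25). Scaling by library size alone in place of TMM (trimmed mean of M values) moved the median of all genes to 0.16, with 29.4% negative, and the median of the 35 genes to -0.18, with 25 negative. The library of Control mouse 3 weighed on the overall level: the median of the 35 genes was -0.18 without it and -0.51 without Mutant mouse 3.

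With edgeR 0 of the 35 genes passed the adjusted threshold, as for all genes. At an unadjusted p under 0.05, 1 gene was higher in Mutant femurs, Mmp25, beside 5.06% of all genes, and 5 were lower, Mmp19, Adamts14, Adamts7, Adamts6 and Adamts10, beside 3.49% of all genes. DESeq2 called Mmp25 higher, beside 0.59% of all genes called higher, and Adamts14 lower, beside 0.0607% called lower. The block fit called the same pair of genes, with backgrounds of 2.7% higher and 0.623% lower. At an unadjusted p under 0.05 the block fit had 4 of these genes higher and 12 lower, beside 9.9% and 6.76% of all genes, and DESeq2 had 2 higher and 7 lower, beside 5.7% and 3.41%. With scaling by library size alone 3 were higher, beside 10.9% of all genes, and 2 were lower, beside 0.844%. The 3 Mutant libraries lay above all 3 Control libraries for 1 gene, Mmp25 (6.54% of all genes), and below them for 5, Mmp23, Mmp28, Adamts10, Adamts12 and Adamts14 (6.67% of all genes). Mutant mice were below the Control mouse of the same number in all 3 pairs for 19 of the 35 genes (19.1% of all genes) and above it in all 3 pairs for 4 genes, Mmp25, Adamts1, Adamts20 and Timp3 (20.6% of all genes).

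**Figure D1:**
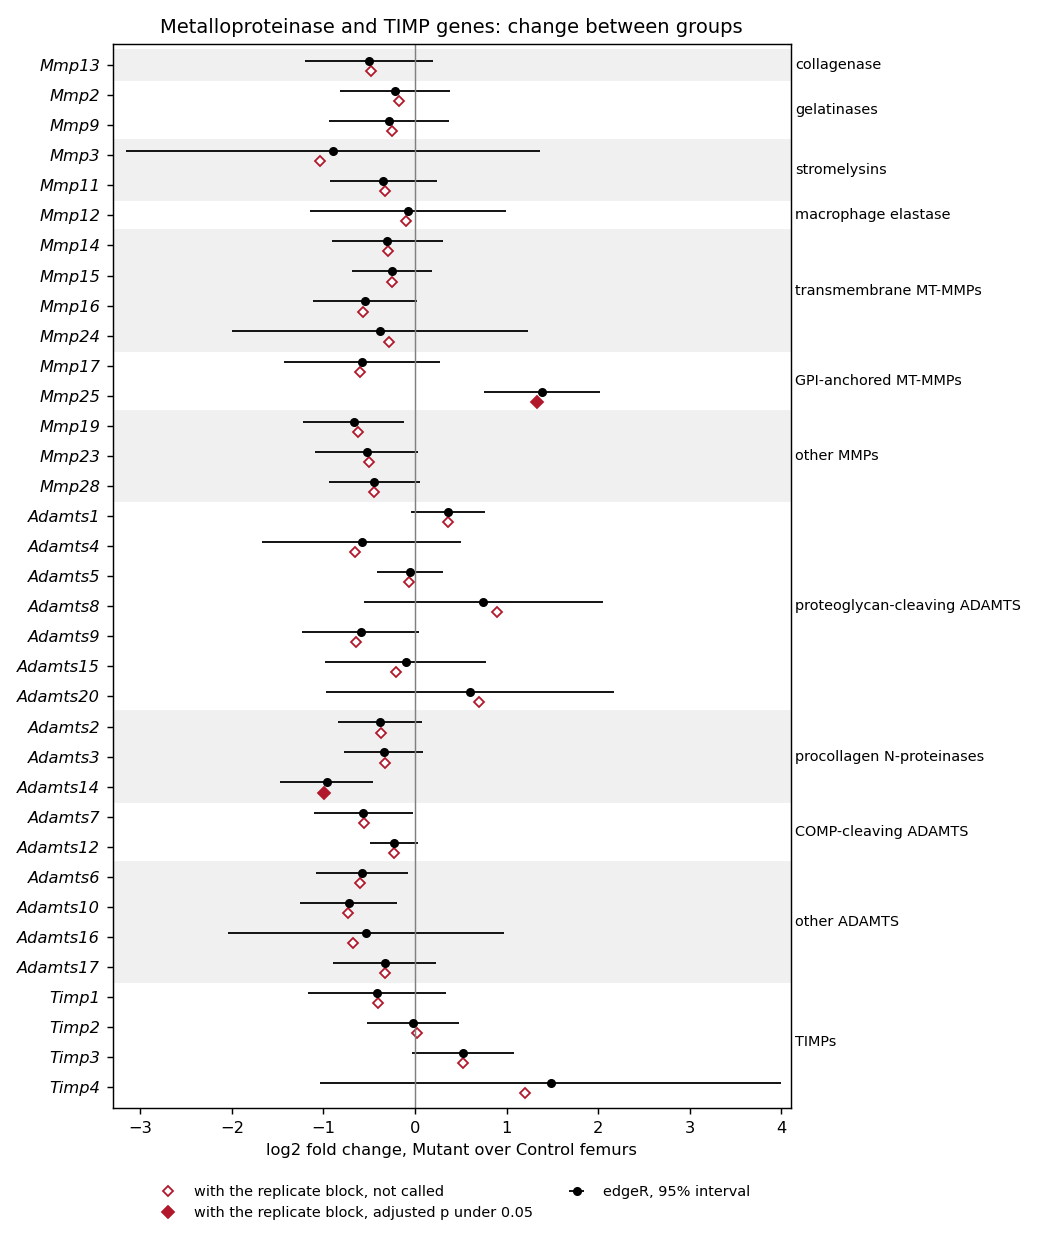
Log2 fold change, Mutant over Control, of the 35 tested genes, ordered by role, with black points for the edgeR estimate, bars for its 95% interval and red diamonds for the fit with the mouse number as a block, filled where the adjusted p was under 0.05. Mmp25 (1.39) and Adamts14 (-0.96) stand farthest from 0 among genes whose interval leaves out 0, and 29 of the 35 black points lie left of the line at 0.

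Sequences upstream of these genes were searched for motifs that transcription factors of bone and myeloid cells bind. Among 22 of the 36 genes with a window of 250 bases before to 50 bases after the start in RefSeq (build GRCm38.p6), 4 motifs were searched on both strands: AP-1 (TGANTCA), RUNX (TGTGGT), PU.1 (GAGGAAG) and C/EBP (TTNNGNAA). AP-1 letters lay in 2 of the 22 windows, Mmp13 and Mmp3, beside 7.93% of 27025 windows. RUNX letters lay in 3, Mmp13, Mmp14 and Mmp23, beside 16.9%. PU.1 letters lay in 2, Mmp12 and Mmp25, beside 13.5%, and C/EBP letters in 5, Mmp25 not among them, beside 40.7%. As shares of the 22 windows these were 9.09% for AP-1, 13.6% for RUNX, 9.09% for PU.1 and 22.7% for C/EBP. With only 22 windows, each share rests on a few genes, so none is read as a difference from all windows. The window of Adamts14, the gene called lower, held none of the 4 motifs. The stretches below are shown for the gene with the highest level, Mmp13, for the membrane collagenase Mmp14 and for the gene called higher, Mmp25, each 30 bases long, 5′ to 3′ on the strand of the gene, with the motif in capitals. The RUNX matches of Mmp13 and Mmp14 read ACCACA because the motif lies on the other strand. A match is a description of letters and not a bound site.
Mmp13, AP-1, chr9:7272467-7272496, plus strand: accccaaagtggTGACTCAtcactatcatg
Mmp13, RUNX, chr9:7272384-7272413, plus strand: attctgccacaaACCACActtaggaagaaa
Mmp14, RUNX, chr14:54431472-54431501, plus strand: atggcagcctgcACCACAgaaaagacaaac
Mmp25, PU.1, chr17:23645265-23645294, minus strand: gcccgcggtcctGAGGAAGcagaagagagc
The first capital base of these stretches lies 35 and 118 bases before the start of Mmp13, 114 before that of Mmp14 and 13 before that of Mmp25.

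Levels of different genes are compared per kilobase of exon. Mmp13 was the highest of the 36, with a mean over the 6 libraries of 842 CPM per kb, and Mmp9 followed with 450 CPM per kb. Mmp2 had 168, Timp2 136 and Mmp14 56.2 CPM per kb, then Timp3 34.4, Timp1 29.9, Adamts2 29.2, Adamts9 12.5 and Mmp16 9.06 CPM per kb. The range over single libraries of Mmp13 (493 to 1420 CPM per kb) overlapped that of Mmp9 (320 to 702), and those of Timp3, Timp1 and Adamts2 overlapped one another. The lowest were Mmp12 at 0.206, Adamts16 at 0.128, Mmp24 at 0.118 and Adamts19 at 0.0187 CPM per kb.

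**Figure D2:**
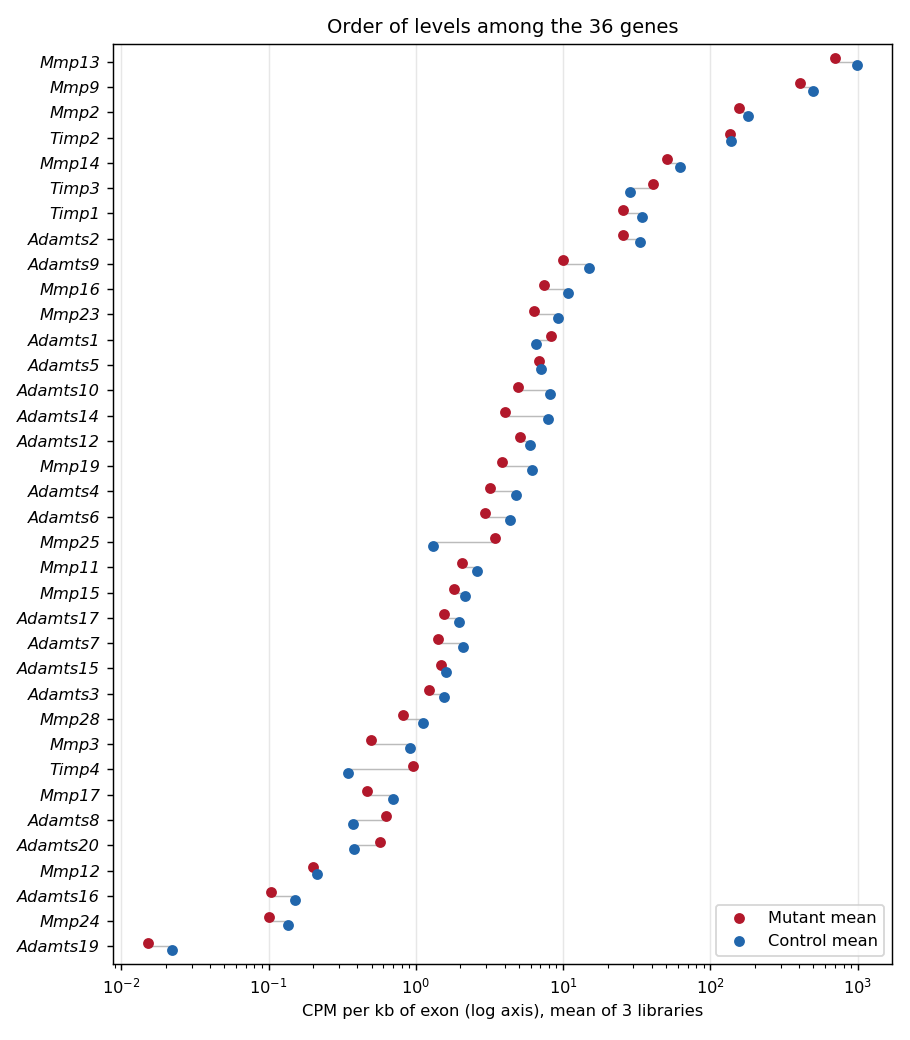
Level of each of the 36 genes in CPM per kilobase of exon on a log axis, with a red point for the mean of the 3 Mutant libraries and a blue point for the mean of the 3 Control libraries, ordered by the mean of all libraries. Mmp13 leads (695 in Mutant and 988 CPM per kb in Control femurs), Adamts19 is last (0.0152 and 0.0221 CPM per kb), and Mmp25 shows one of the widest gaps (3.43 and 1.31 CPM per kb).

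Mmp13 (ENSMUSG00000050578, chr9:7272514-7283331 in GRCm39, plus strand) encodes collagenase-3, the main interstitial collagenase of mice, made by hypertrophic chondrocytes and osteoblasts. It had 1318, 1901 and 2357 CPM in Mutant mice 1, 2 and 3, against 2014, 2115 and 3794 CPM in Control mice 1, 2 and 3. The Mutant values spread around the lower Control values and Control mouse 3 stood alone at the top, so the groups overlapped. The log2 fold change was -0.51 (SE 0.31, 95% interval -1.21 to 0.19, adjusted p = 0.665 in edgeR's quasi-likelihood test). It was -0.15 without Control mouse 3, while each Mutant mouse was below its same-numbered Control mouse (block fit of edgeR, -0.48, adjusted p = 0.0978).

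The gelatinases cut denatured collagen. Mmp9 (ENSMUSG00000017737, chr2:164780439-164797771), a gelatinase of osteoclasts and of invading vessels at the growth plate among other cells, had 1186, 1394 and 1934 CPM in Mutant mice 1, 2 and 3 and 1445, 1449 and 2599 CPM in Control mice 1, 2 and 3. Mmp2 (ENSMUSG00000031740, chr8:93553902-93580049), the gelatinase of mesenchymal cells, had 438, 614 and 596 CPM in Mutant mice 1, 2 and 3 and 414, 647 and 855 CPM in Control mice 1, 2 and 3. Both genes overlapped between the groups and both had their highest value in Control mouse 3. Mmp9 had a log2 fold change of -0.28 (SE 0.29, 95% interval -0.93 to 0.37) and Mmp2 of -0.22 (SE 0.26, 95% interval -0.82 to 0.38), and without Control mouse 3 the signs turned to 0.06 and 0.05.

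Osteoclast markers moved with the bone proteases from library to library. Of 10 osteoclast genes, 9 had negative log2 fold changes (median -0.48), none was at 0 in every library, and their sum was 1809, 2364 and 3024 CPM in Mutant mice 1, 2 and 3 against 2389, 2760.3 and 4745 CPM in Control mice 1, 2 and 3. Per 1000 CPM of that list, Mmp9 had 656, 589 and 639 CPM in Mutant mice 1, 2 and 3 and 605, 525 and 548 CPM in Control mice 1, 2 and 3, and Mmp13 had 729, 804 and 779 CPM against 843, 766 and 799.6 CPM. On that scale both genes still overlapped between the groups. For Mmp9, each Mutant mouse was then above its same-numbered Control mouse, whereas in CPM each was below it. Most of the osteoclast sum was the markers Ctsk and Acp5. The block fit called 2 osteoclast markers lower, Ocstamp (adjusted p = 0.0457) and Atp6v0d2 (0.0143), beside 0.623% of all genes. It had 7 of the 10 lower at an unadjusted p under 0.05, beside 6.76% of all genes. Neither edgeR without the block nor DESeq2 called any of them. All 10 osteoblast markers also had negative values (median -0.40), or 9 with library size alone. The block fit called 1 of them lower, Sp7 (adjusted p = 0.0384), and had 8 lower at an unadjusted p under 0.05. Here too, edgeR without the block and DESeq2 called none. Their sum ran from 61366 to 111679 CPM in Mutant femurs and from 122396 to 177142 CPM in Control femurs. Most of that sum was Col1a1 and Col1a2, the only 2 markers of the list whose groups did not overlap. Both genes of the hypertrophic chondrocyte list had positive values (median 0.63), Col10a1 0.26 with overlapping groups and Ihh 1.00 with the groups apart. Each had an unadjusted p under 0.05 in the block fit and no call at the adjusted threshold with all mice. Their sum, mostly Col10a1, was 225, 196 and 265 CPM in Mutant mice 1, 2 and 3 against 201, 148 and 217 CPM in Control mice 1, 2 and 3. Mmp9 and Mmp13 were not set against the other marker lists, that of neutrophils included. The part of these cell types in the protease levels was not tested.

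The membrane-type MMPs work at the cell surface. Mmp14 (ENSMUSG00000000957, chr14:54668878-54682821), a collagenase that also activates the Mmp2 proenzyme, had 223, 323 and 385 CPM in Mutant mice 1, 2 and 3 and 287, 342 and 518 CPM in Control mice 1, 2 and 3. Each Mutant mouse was below its numbered Control mouse, the groups overlapped, and the log2 fold change was -0.30 (SE 0.26), or -0.01 without Control mouse 3. Mmp16, which also activates the Mmp2 proenzyme, had 78.8, 107 and 149 CPM in Mutant mice 1, 2 and 3 against 165, 127 and 196 CPM in Control mice 1, 2 and 3. Mutant mouse 3 overlapped the Control range, and the log2 fold change was -0.54 (SE 0.25, adjusted p = 0.594 in edgeR, 0.0785 in its block fit and 0.0239 in the block fit without pair 2). The other transmembrane members, Mmp15 at 8.96 to 11.2 CPM in Mutant and 10.7 to 12.6 CPM in Control femurs and Mmp24 at 0.454 to 1.14 CPM and 0.308 to 1.58 CPM, had log2 fold changes of -0.25 (SE 0.19) and -0.38 (SE 0.71). Exons of Mmp24 share 698 bases with Mmp24os1 on the opposite strand, a more abundant RNA at 17.4 CPM, and whether strand was used in counting is not given in the sources used here.

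Mmp25 (ENSMUSG00000023903, chr17:23847285-23864251 in GRCm39, minus strand), leukolysin, is a lipid-anchored MMP of the neutrophil surface. It had 22.01, 21.5 and 11.03 CPM in Mutant mice 1, 2 and 3, against 7.74, 6.73 and 6.35 CPM in Control mice 1, 2 and 3. All Mutant values lay above all Control values, with Mutant mouse 3 well under the other Mutant mice and the Control mice close together. The mean was 18.2 ± 6.20 CPM in Mutant femurs and 6.94 ± 0.716 CPM in Control femurs (SD, n = 3 each), and the log2 fold change was 1.39 (SE 0.28, 95% interval 0.75 to 2.02). The adjusted p was 0.447 in edgeR's quasi-likelihood test (unadjusted 0.0008), 0.00353 in DESeq2 and 0.00817 in edgeR's block fit, where leaving out each numbered pair gave 0.0156 to 0.0412.

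Neutrophil markers differed between the groups in the same direction. All 10 genes of a neutrophil list, which holds S100a8, Ltf, Camp and Mpo, were called higher in Mutant femurs by DESeq2 and by the block fit (median log2 fold change 1.64), and none was at 0 in every library. Their sum was 1896, 1519.8 and 1070.5 CPM in Mutant mice 1, 2 and 3 against 561, 605 and 297 CPM in Control mice 1, 2 and 3. Per 1000 CPM of the list, Mmp25 had 11.6, 14.1 and 10.3 CPM in Mutant mice 1, 2 and 3 and 13.8, 11.1 and 21.4 CPM in Control mice 1, 2 and 3. On that scale the groups overlapped and the highest value was a Control value. Mmp8, which was left out of the 36 genes as the neutrophil collagenase, had 68.2, 52.5 and 35.8 CPM in Mutant mice 1, 2 and 3 against 15.8, 19.5 and 10.2 CPM in Control mice 1, 2 and 3, a log2 fold change of 1.79 (SE 0.30), with the same order of the Mutant mice as the neutrophil sum. The part of neutrophil number in the Mmp25 level was not tested. Mmp17, the other lipid-anchored MMP, ran from 1.98 to 4.35 CPM in Mutant and from 3.41 to 6.54 CPM in Control femurs and had a log2 fold change of -0.58 (SE 0.38).

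**Figure D3:**
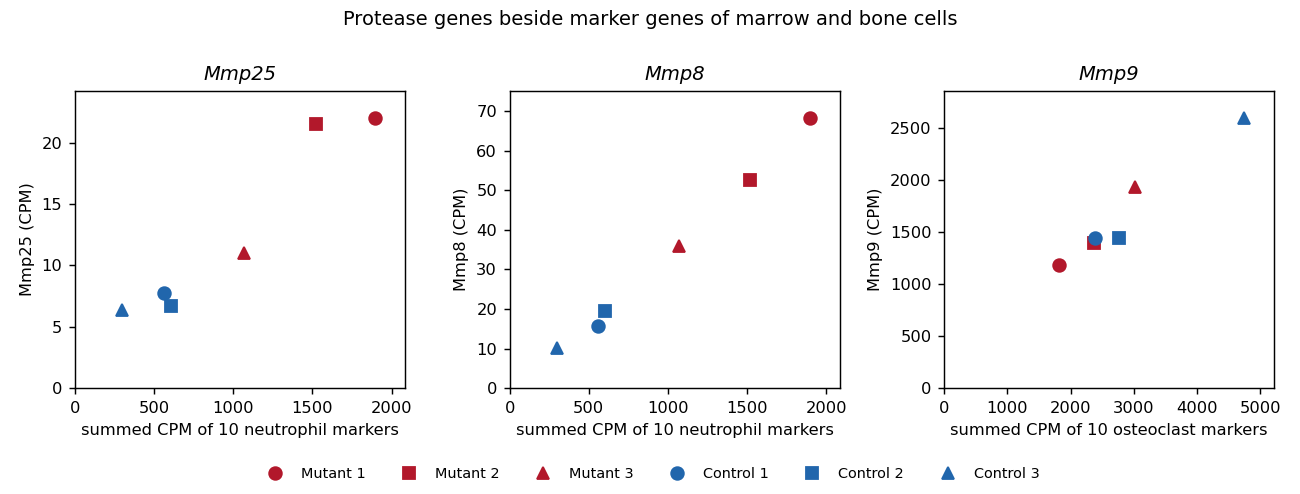
Level of Mmp25, Mmp8 and Mmp9 in each library (vertical axes, CPM) against the summed CPM of 10 neutrophil markers or, for Mmp9, 10 osteoclast markers (horizontal axes), on linear axes from 0, with Mutant libraries in red, Control libraries in blue and 1 symbol per mouse number. The Mutant libraries lie to the upper right of the Control libraries for Mmp25, Mmp8 and the neutrophil list (sums of 1070.5 to 1896 CPM against 297 to 605 CPM), whereas for the osteoclast list the groups overlap and Control mouse 3 lies highest.

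Mmp19, Mmp23 and Mmp28 belong to none of the classic MMP subgroups, and all 3 had negative log2 fold changes. Mmp19, a soluble MMP that cuts basement membrane proteins, had 13.6, 12.7 and 14.5 CPM in Mutant mice 1, 2 and 3 against 13.9, 23.6 and 27.3 CPM in Control mice 1, 2 and 3. The Mutant mice were nearly level and Control mouse 1 lay among them, so the log2 fold change of -0.67 (SE 0.24, unadjusted p = 0.0226, adjusted p = 0.563 in edgeR's quasi-likelihood test) rested on Control mice 2 and 3, and was -0.46 without Control mouse 3. In edgeR's block fit the adjusted p was 0.121, and 0.0245 without pair 1. Its exons share 1084 bases with Tmem198b on the opposite strand, at 12.7 CPM.

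Mmp23, an MMP anchored by its N-terminal part, had 13.4, 19.3 and 18.8 CPM in Mutant mice 1, 2 and 3 against 19.6, 20.5 and 33.9 CPM in Control mice 1, 2 and 3, and Mmp28, epilysin, had 7.12, 5.61 and 5.71 CPM against 7.82, 8.80 and 8.45 CPM. Neither gene overlapped between the groups, although Mutant mouse 2 and Control mouse 1 were within 1 CPM of each other for Mmp23. Their log2 fold changes were -0.53 (SE 0.25) and -0.44 (SE 0.22), with adjusted p of 0.599 and 0.614 in edgeR's quasi-likelihood test. Mmp23 had -0.22 without Control mouse 3.

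The stromelysins and the macrophage elastase were low in these bones. Mmp3, stromelysin-1, which activates other MMP proenzymes, had 1.504, 0 and 1.17 CPM in Mutant mice 1, 2 and 3 and 0.499, 2.16 and 2.28 CPM in Control mice 1, 2 and 3. The groups overlapped, and its log2 fold change of -0.90 (SE 0.98, 95% interval -3.16 to 1.37) was among the most negative and the least precise of the 35. Mmp11, stromelysin-3, ran from 6.46 to 8.70 CPM in Mutant and from 7.25 to 11.8 CPM in Control femurs (log2 fold change -0.34, SE 0.26). Mmp12, the macrophage elastase, ran from 0.871 to 1.99 CPM in Mutant and from 1.12 to 2.00 CPM in Control femurs (log2 fold change -0.07, SE 0.47), and was 0.07 with scaling by library size alone. Mmp11 shares 155 exon bases with the opposite-strand gene Chchd10, which had 22.9 CPM.

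**Figure D4:**
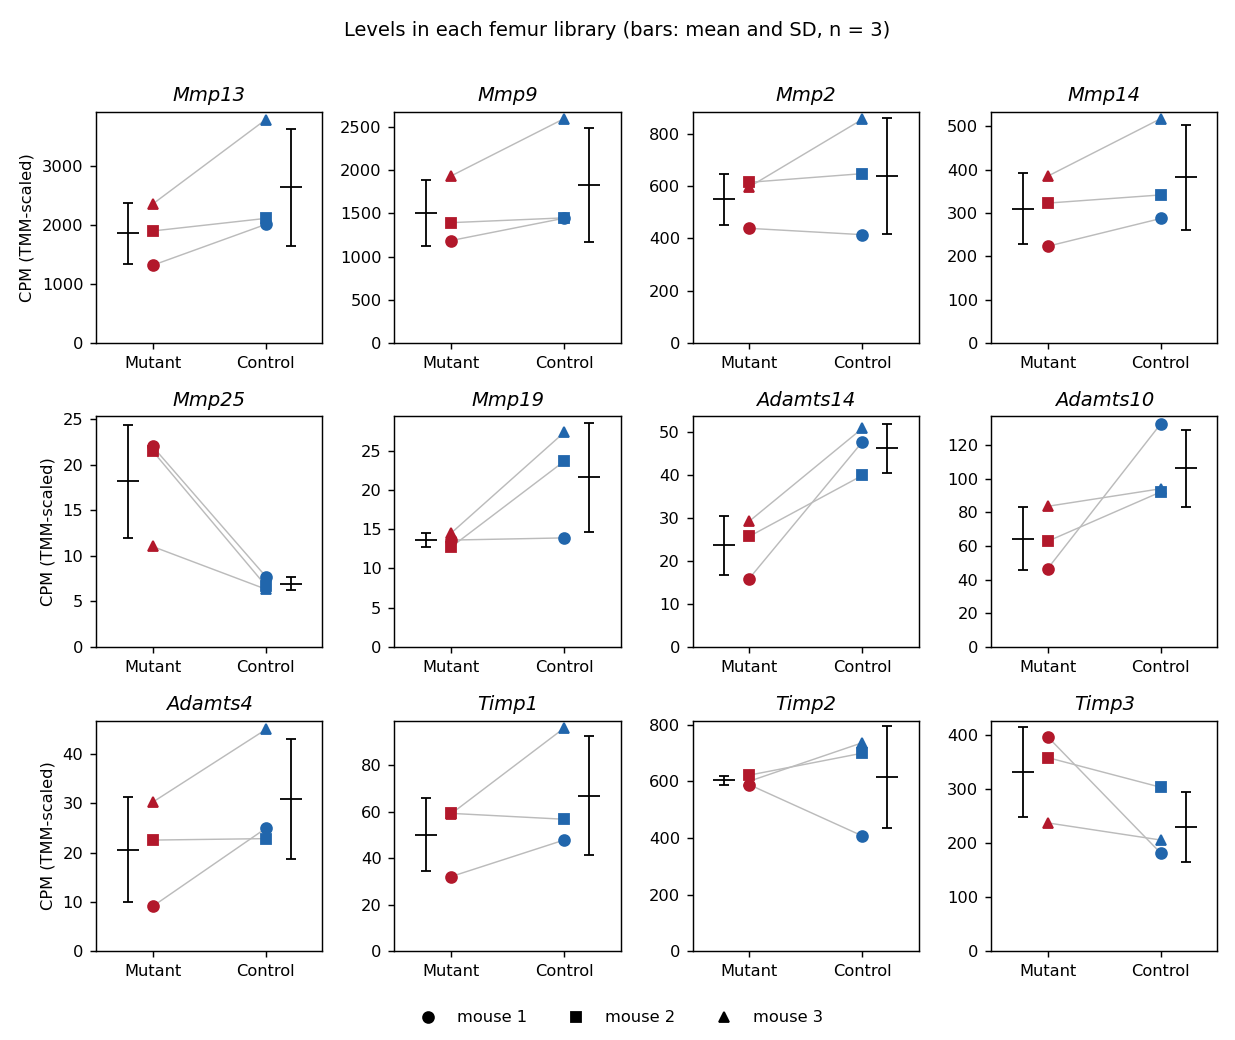
Levels by library, in CPM on linear axes that start at 0, of 12 of the genes, 1 panel per gene, with the 3 Mutant libraries left of the 3 Control libraries, grey lines between mice of the same number and bars for the mean and SD (n = 3). Mmp25 has every Mutant point above the Control points (11.03 to 22.01 against 6.35 to 7.74 CPM) and Adamts14 every Mutant point below them (15.9 to 29.2 against 39.9 to 50.8 CPM), while Mmp13 and Mmp9 overlap.

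Adamts14 was the gene with the clearest lower level. It is 1 of 3 procollagen N-proteinases, the enzymes that remove the amino-terminal propeptide from fibrillar procollagens before fibrils form. Adamts14 (ENSMUSG00000059901, chr10:61032891-61109232 in GRCm39, minus strand) had 15.9, 25.7 and 29.2 CPM in Mutant mice 1, 2 and 3, against 47.7, 39.9 and 50.8 CPM in Control mice 1, 2 and 3. Every Mutant value lay below every Control value, with a gap between 29.2 and 39.9 CPM. The mean was 23.6 ± 6.89 CPM in Mutant femurs and 46.1 ± 5.63 CPM in Control femurs (SD, n = 3 each), a log2 fold change of -0.96 (SE 0.22, 95% interval -1.47 to -0.46). The adjusted p was 0.490 in edgeR's quasi-likelihood test (unadjusted 0.00201), 0.0340 in DESeq2 and 0.0153 in edgeR's block fit. In the block fit without pair 3 the adjusted p was 0.0985 and the call was lost, at a log2 fold change of -1.10.

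Adamts2 (ENSMUSG00000036545, chr11:50492787-50698400), the main procollagen I N-proteinase of skin and bone, was the most abundant ADAMTS gene per kb. It had 202, 230.4 and 287 CPM in Mutant mice 1, 2 and 3 against 256, 284 and 398 CPM in Control mice 1, 2 and 3. Mutant mouse 3 overlapped the Control range, and the log2 fold change was -0.38 (SE 0.20, adjusted p = 0.628 in edgeR and 0.0853 in its block fit). Adamts3, which acts on procollagen II and on the lymphatic growth factor Vegfc, ran from 12.3 to 14.7 CPM in Mutant and from 13.9 to 19.9 CPM in Control femurs (log2 fold change -0.34, SE 0.19).

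Set against Col1a1, the type I procollagen gene that these enzymes serve, Adamts14 and Adamts2 parted, while the Adamts3 ratio was not taken. Col1a1 had a log2 fold change of -0.69 (SE 0.34, adjusted p = 0.614 in edgeR's quasi-likelihood test), and its Mutant values all lay below its Control values. Per 1000 CPM of Col1a1, Adamts14 had 0.392, 0.399 and 0.398 CPM in Mutant mice 1, 2 and 3 against 0.554, 0.483 and 0.426 CPM in Control mice 1, 2 and 3, and Adamts2 had 4.98, 3.58 and 3.92 CPM in Mutant mice 1, 2 and 3 against 2.98, 3.44 and 3.34 CPM in Control mice 1, 2 and 3. The Adamts14 ratio was below all Control mice and the Adamts2 ratio above all Control mice, by small margins at Control mouse 3 and at Mutant mouse 2. With 3 mice against 3, a 2-sided exact permutation test cannot go below p = 0.1, so these ratios are given as values. Because Col1a1 was itself lower, a gene that fell less, such as Adamts2 (log2 fold change -0.38), has a higher ratio in Mutant femurs. Adamts14 had already been singled out by its low level in these data. How many genes of all those tested part when set against Col1a1 was not counted.

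The proteoglycan-cleaving ADAMTS enzymes were mixed, with 4 of 7 negative and a median of -0.05. Adamts5, the main aggrecanase of mouse cartilage, had 64.1, 67.1 and 91.6 CPM in Mutant mice 1, 2 and 3 and 71.0, 78.9 and 80.9 CPM in Control mice 1, 2 and 3, with the highest and the lowest value both in Mutant mice. Its log2 fold change was -0.05 (SE 0.16, 95% interval -0.41 to 0.31) with TMM and 0.11 with scaling by library size alone. Adamts4, the other major aggrecanase, had 9.10, 22.6 and 30.2 CPM in Mutant mice 1, 2 and 3 and 25.0, 22.9 and 45.0 CPM in Control mice 1, 2 and 3. Mutant mouse 1 was lowest and Control mouse 3 highest, the groups overlapped between them, and the log2 fold change was -0.58 (SE 0.46, adjusted p = 0.748 in edgeR, 0.211 in its block fit and 0.0171 in the block fit without pair 2).

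Adamts9, a versican- and aggrecan-cleaving protease, had 93.6, 153 and 206 CPM in Mutant mice 1, 2 and 3 against 255, 179 and 249 CPM in Control mice 1, 2 and 3. Mutant mouse 3 lay inside the Control range, and the log2 fold change was -0.59 (SE 0.28, 95% interval -1.23 to 0.05). Adamts1, a versican-cleaving enzyme of many tissues, ran the other way, with 37.9 to 50.8 CPM in Mutant and 28.5 to 41.0 CPM in Control femurs and a log2 fold change of 0.36 (SE 0.18). Adamts8, Adamts15 and Adamts20, which cut proteoglycans as well, had log2 fold changes of 0.74 (SE 0.58), -0.10 (SE 0.38) and 0.60 (SE 0.67), and their groups overlapped. Acan, the aggrecan gene and the main substrate of Adamts4 and Adamts5, had 612, 271 and 736 CPM in Mutant mice 1, 2 and 3 against 190.2, 219 and 158 CPM in Control mice 1, 2 and 3. It was called higher by DESeq2 (log2 fold change 1.51, adjusted p = 0.00105) but not by edgeR (0.490) or its block fit (0.310). The block fit without pair 2 gave 6.86e-07, but pair 2 held the smallest Acan difference and few libraries remained.

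Adamts7 and Adamts12 both cut COMP, a glycoprotein of cartilage and tendon. Adamts7 had 7.36, 8.59 and 10.8 CPM in Mutant mice 1, 2 and 3 against 14.6, 10.01 and 14.9 CPM in Control mice 1, 2 and 3, and Control mouse 2 lay under Mutant mouse 3. Its log2 fold change was -0.56 (SE 0.24, unadjusted p = 0.0419, adjusted p = 0.573 in edgeR's quasi-likelihood test), and its exons share 122 bases with the opposite-strand gene Tbc1d2b, at 108 CPM. Adamts12 had 55.6, 56.1 and 54.7 CPM in Mutant mice 1, 2 and 3 against 62.8, 63.3 and 68.9 CPM in Control mice 1, 2 and 3. The mice of each group lay close together and the groups did not overlap, at a log2 fold change of only -0.23 (SE 0.12, 95% interval -0.49 to 0.03), or -0.07 with scaling by library size alone. Comp itself had a log2 fold change of 1.18 (SE 0.53, adjusted p = 0.612 in edgeR's quasi-likelihood test).

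Adamts6 and Adamts10 are linked to fibrillin microfibrils. Adamts10 (ENSMUSG00000024299, chr17:33742987-33772758) had 46.5, 62.8 and 83.6 CPM in Mutant mice 1, 2 and 3 against 133, 92.1 and 94.0 CPM in Control mice 1, 2 and 3. All Mutant values lay below all Control values, and the log2 fold change was -0.72 (SE 0.23, 95% interval -1.25 to -0.20, unadjusted p = 0.0129, adjusted p = 0.545 in edgeR's quasi-likelihood test, 0.217 in DESeq2 and 0.249 in edgeR's block fit). Adamts6 had 21.0, 17.3 and 30.2 CPM in Mutant mice 1, 2 and 3 against 40.0, 29.6 and 33.0 CPM in Control mice 1, 2 and 3. It overlapped between Mutant mouse 3 and Control mouse 2, and the log2 fold change was -0.58 (SE 0.22, unadjusted p = 0.0274, adjusted p = 0.563 in edgeR and 0.0850 in its block fit). Adamts17, which in humans is tied to short stature with lens dislocation, ran from 14.3 to 22.5 CPM in Mutant and from 16.7 to 27.9 CPM in Control femurs, and Adamts16 from 0.213 to 1.30 CPM and from 0.776 to 1.42 CPM, with log2 fold changes of -0.33 (SE 0.25) and -0.53 (SE 0.67).

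None of the inhibitors was called by edgeR, DESeq2 or the block fit with all mice. Timp2 (ENSMUSG00000017466, chr11:118191887-118246566), which both blocks MMPs and helps Mmp14 to activate the Mmp2 proenzyme, had 588, 622 and 600.3 CPM in Mutant mice 1, 2 and 3 and 407, 699.5 and 736 CPM in Control mice 1, 2 and 3. The Mutant mice were level and lay inside the wide Control range, with a log2 fold change of -0.03 (SE 0.22, 95% interval -0.53 to 0.48). Timp1, a secreted inhibitor of most soluble MMPs, had 32.1, 59.4 and 59.1 CPM in Mutant mice 1, 2 and 3 and 47.9, 56.9 and 96.1 CPM in Control mice 1, 2 and 3. The groups overlapped, and the log2 fold change of -0.42 (SE 0.32) was -0.05 without Control mouse 3. In edgeR's block fit Timp1 was called only without pair 2 (adjusted p = 0.0425).

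Timp3 (ENSMUSG00000020044, chr10:86136236-86185371), the matrix-bound inhibitor that also blocks Adamts4 and Adamts5, had 397, 358 and 238 CPM in Mutant mice 1, 2 and 3 and 181, 303 and 206 CPM in Control mice 1, 2 and 3. Each Mutant mouse was above its numbered Control mouse, but Mutant mouse 3 was below Control mouse 2. The log2 fold change was 0.52 (SE 0.25, 95% interval -0.04 to 1.08, adjusted p = 0.601 in edgeR and 0.178 in its block fit). Timp4, an inhibitor known from heart, muscle and cartilage, was spread over 1.04 to 14.7 CPM in Mutant and 1.11 to 5.52 CPM in Control femurs, so that its log2 fold change of 1.48 had an SE of 1.03 and was 0.50 without Mutant mouse 1. Timp3 and Timp4 lie within the synapsin genes Syn3 and Syn2 on the opposite strand, which had 1.86 and 1.00 CPM and share 1734 and 1142 exon bases with them.

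The genes around these enzymes were read from lists of activators, inhibitors and related proteins. Of 16 genes that activate, inhibit or clear the proteases, 11 had negative values (median -0.18, and 8 negative with library size alone), with 0 higher and 3 lower at an unadjusted p under 0.05 in edgeR, and the block fit called 2 lower. These were Bmp1, the procollagen C-proteinase, with 229.7, 339 and 407 CPM in Mutant mice 1, 2 and 3 against 489, 436 and 628 CPM in Control mice 1, 2 and 3, and Pcsk6, a proprotein convertase that activates metalloproteinase precursors, with 112, 129 and 171 CPM against 182, 195 and 246 CPM. Neither gene overlapped between the groups. Their log2 fold changes were -0.67 (SE 0.23) and -0.60 (SE 0.19), and their adjusted p were 0.0249 and 0.00970 in edgeR's block fit, 0.563 and 0.545 in edgeR without the block, and 0.248 and 0.235 in DESeq2. In the block fit, both calls were lost without pair 3, at adjusted p of 0.147 for Bmp1 and 0.0827 for Pcsk6. Furin, the best-known activator of the membrane-type MMPs, had a log2 fold change of -0.06 (SE 0.15), and Reck, a membrane-anchored MMP inhibitor, of 0.15 (SE 0.18).

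Of 8 ADAM proteases tested, membrane relatives of the ADAMTS enzymes that mostly shed surface proteins, 7 had negative values (median -0.13), or 4 (median 0.03) with library size alone. The exception with TMM was Adam8, a protease of myeloid cells, with 21.0, 25.3 and 11.4 CPM in Mutant mice 1, 2 and 3 against 10.3, 9.40 and 7.83 CPM in Control mice 1, 2 and 3. All Mutant values were above all Control values, and the log2 fold change was 1.06 (SE 0.29, adjusted p = 0.545 in edgeR, 0.0916 in DESeq2 and 0.0243 in edgeR's block fit, where it was 0.0620 to 0.102 with any 1 pair left out). The neutrophil list was higher in the same femurs, and its part in the Adam8 level was not tested. Of 7 ADAMTS-like proteins, which lack the protease domain, 5 had negative values (median -0.13), or 3 with library size alone, and none was called by any of these tests. The Mmp and Adamts genes left out of the 36 were mostly at very low levels: of 10, 6 were in the table and 2 could be tested, Mmp8 and Adamts18, whose log2 fold change was -0.96 (SE 0.45).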

How the data were processed

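The authors depleted rRNA, built libraries with the NEBNext Ultra II kit, aligned paired-end reads to mm39 with STAR and worked in Partek, and their methods name DESeq2 and ANOVA. The annotation, the use of strand in counting and tool versions are not stated in the labels or methods. In the deposited table, the values are estimated counts per gene, 70.7% of them whole, and were rounded. Gene names, coordinates and exon lengths came from GENCODE M39 (GRCm39), which matched 23572 of 23733 identifiers.

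Genes were filtered with filterByExpr (minimum count 10, minimum total 15), scaled by TMM (factors 1.10, 1.01 and 1.06 in Mutant and 0.952, 0.931 and 0.952 in Control mice 1, 2 and 3) and tested with edgeR 4.0.16 (robust quasi-likelihood test, Benjamini-Hochberg, R 4.3.3) over all 18126 genes. CPM are TMM-scaled. Alternatives were DESeq2 1.42.0, limma-voom 3.58.1, other scalings and filters, and each mouse left out. The p-values measure the spread among 3 mice per group or, in the block fit, the spread of the differences within the numbered pairs. With a pair left out of the block fit, they lean more on spread borrowed from other genes. Code was tested on simulated data. Over 17168 genes the deviations of same-numbered mice correlated at 0.226, 0.289 and 0.562. On that ground, from these same data, the label numbers were taken to pair the mice and a block fit is given. No label says that the numbers mark pairs, and Mutant mouse 1 correlated as much with Control mouse 2 (0.232).

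All 36 genes are accounted for by role. Values for every library are given for genes with an unadjusted p under 0.05, called by DESeq2 or the block fit or with groups apart, for the 10 highest per kb and for preset proteases and inhibitors. Genes and lists were chosen with earlier results of these data known.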

Additional observations from a re-analysis of the deposited data

How the results depend on the processing

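The count of genes called, 0 in edgeR, was 118 in DESeq2 and 602 with the replicate block, and ranged from 0 to 8 with a mouse left out and from 157 to 700 (297 without pair 1) in the block fit with a pair left out. The 8 arose without Mutant mouse 2. Among the 35 genes, 0 were called in edgeR, 2 in DESeq2 and 2 in the block fit (1 to 5 with a pair left out): Adamts14 was lost without pair 3, Mmp19 came in without pair 1, and Adamts4, Mmp16 and Timp1 came in without pair 2. With all pairs, the block changed no other call among the 36 genes. At an unadjusted p under 0.05 the 6 genes (1 higher, 5 lower) became 16 with the block (4 higher, 12 lower), 9 in DESeq2 (2 higher) and 5 with library size alone (3 higher, 2 lower). With a mouse left out the total ranged from 3 to 13, those higher from 1 to 3 and those lower from 2 to 10, the extremes being without Mutant mouse 2 and without Mutant mouse 3, while over all genes 444 to 1560 were higher and 271 to 1273 lower, most without Mutant mouse 3 in both directions. With a pair left out of the block fit the ranges were 8 to 17, 2 to 5 (1339 to 1696 of all genes) and 6 to 13 (1006 to 1045 of all genes).

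The sign turned for 8 genes whose 95% intervals all held 0, among them the imprecise Mmp3 (-0.90) and Mmp24 (-0.38). With library size alone the log2 fold change was 0.0730 for Mmp12, 0.112 for Adamts5, 0.0577 for Adamts15 and 0.138 for Timp2, and Timp2 had 0.0271 in limma-voom and 0.0202 with the replicate block. Without 1 mouse the values ranged from -0.47 to 0.0526 for Mmp2 and from -0.51 to 0.0619 for Mmp9 (both highest without Control mouse 3), from -0.36 to 0.178 for Mmp12, -0.94 to 0.255 for Mmp24, -0.23 to 0.0451 for Adamts5, -0.66 to 0.194 for Adamts15 and -0.27 to 0.125 for Timp2. In the block fit without 1 pair the positive values were 0.00108 for Mmp2, 0.144 for Mmp3, 0.397 for Mmp12, 0.454 for Mmp24, 0.0201 for Adamts5 and 0.119 to 0.178 for Timp2. The causes were not tested. Genes under about 1 CPM, such as Mmp24 and Adamts16, rest on few reads.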
